A study of Mus musculus with 6 samples.

Results

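Matrix metalloproteinase (*Mmp*), *Adamts*, *Adamts*-like (*Adamtsl*) and tissue inhibitor of metalloproteinases (*Timp*) genes were followed in endometriosis-like lesions of mice given vehicle or niclosamide. Members were taken by gene symbol alone. They comprised 51 of the 41786 symbols in the count files, with 23 *Mmp*, 19 *Adamts*, 5 *Adamtsl* and 4 *Timp* genes. All mice were female C57BL/6. Uterus of a B6-GFP positive donor, aged 6 weeks, was sutured inside the abdomen of a wild-type recipient, aged 8 weeks, to its peritoneal wall, and the estrous cycles of both were matched. Dosing began 3 days later and was oral and daily over 3 weeks, with vehicle alone in the control group and 200 mg per kg body weight of niclosamide in the other. Necropsy was in diestrus. The labels also place lesion collection 3 weeks after implantation, so the exact day of collection is unclear. Niclosamide is an anthelmintic drug. Each group had 3 libraries, both groups carry the genotype label B6-GFP Positive, and the series is described as a direct comparison of the 2 treatments. The RNA of vehicle library 1 was pooled from 4 mice, and each other library came from 1 mouse. Reads of donor and recipient cells were not separated, so a level is that of the whole dissected tissue. In such bulk RNA, fewer cells of a type and less RNA per cell cannot be told apart.

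MMPs are zinc-dependent endopeptidases that cut collagens, gelatin, elastin, laminin and many cell surface proteins. Most are secreted as inactive proenzymes, and some are anchored in the membrane. ADAMTS proteases are secreted enzymes with thrombospondin repeats that bind them to the matrix, and their substrates include proteoglycans and procollagens. ADAMTS-like proteins share those repeats but have no catalytic domain. TIMPs bind the active site of MMPs, and TIMP3 also inhibits several ADAM and ADAMTS proteases. In the endometrium these enzymes take part in tissue breakdown, repair and the attachment of displaced tissue, and progesterone keeps several of them low.

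The *Mmp* genes include a cluster of 10 on chromosome 9, within 427 kb (GRCm38.p3, 9:7272514-7699416), where collagenases, stromelysins, matrilysin and metalloelastase lie side by side. Their order is *Mmp13*, *Mmp12*, *Mmp1b*, *Mmp3*, *Mmp1a*, *Mmp10*, *Mmp8*, *Mmp27*, *Mmp20* and *Mmp7*, and *Mmp1b* alone is on the minus strand. Several of these genes are textbook targets of the transcription factor AP-1. The motif TGANTCA, an AP-1 recognition pattern that reads the same on both strands, was searched from 250 bases before to 50 bases after each gene's start in RefSeq promoter windows (GRCm38.p6). A gene was counted if the window of any of its listed starts held the motif, for members and all genes alike. Of the members, 36 had a window, and 8 of these (22.2%) held the motif. All 8 were among the 10 genes of the chromosome 9 cluster (80%), and 0 of the 26 other matched members held it. Of all 27025 genes with a window, 2425 (8.97%) held it. A match describes letters and does not show binding. *Mmp2*, *Mmp9*, *Mmp16*, *Mmp17*, *Mmp19*, *Adamts4*, *Adamts5*, *Adamts6*, *Adamts7*, *Adamts8*, *Adamts10*, *Adamts15*, *Adamts16*, *Adamts19* and *Adamtsl1* had no entry in the table.

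Printed here are the 110 bases before the start of 7 cluster genes, chosen to show the shared motif across enzyme classes and its presence in a gene without counts here (*Mmp1a*) and its absence in a neighbour with counts (*Mmp8*). All are on the plus strand of chromosome 9, 5′ to 3′, with the motif in capitals. In GRCm38.p6 they cover 7272404-7272513 for *Mmp13*, 7347264-7347373 for *Mmp12* (the second of its listed starts), 7445712-7445821 for *Mmp3*, 7464031-7464140 for *Mmp1a*, 7502232-7502341 for *Mmp10*, 7558319-7558428 for *Mmp8* and 7691980-7692089 for *Mmp7*.
Mmp13: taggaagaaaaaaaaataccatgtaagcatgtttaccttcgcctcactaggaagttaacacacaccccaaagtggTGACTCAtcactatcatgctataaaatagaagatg
Mmp12: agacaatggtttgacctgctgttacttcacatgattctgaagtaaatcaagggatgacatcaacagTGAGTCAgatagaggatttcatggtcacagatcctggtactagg
Mmp3: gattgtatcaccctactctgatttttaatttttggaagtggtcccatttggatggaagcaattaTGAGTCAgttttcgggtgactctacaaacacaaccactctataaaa
Mmp1a: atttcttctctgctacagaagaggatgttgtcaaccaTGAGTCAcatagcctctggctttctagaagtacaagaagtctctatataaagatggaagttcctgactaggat
Mmp10: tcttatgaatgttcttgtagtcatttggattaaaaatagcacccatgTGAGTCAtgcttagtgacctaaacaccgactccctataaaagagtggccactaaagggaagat
Mmp8: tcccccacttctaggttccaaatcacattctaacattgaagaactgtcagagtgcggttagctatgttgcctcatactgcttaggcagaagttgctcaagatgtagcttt
Mmp7: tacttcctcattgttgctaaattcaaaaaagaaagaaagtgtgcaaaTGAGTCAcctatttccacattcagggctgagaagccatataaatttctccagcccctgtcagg
The first base of the motif lies 35 bases before the start in *Mmp13*, 44 in *Mmp12*, 46 in *Mmp3*, 63 in *Mmp10*, 63 in *Mmp7* and 73 in *Mmp1a*. *Mmp12* and *Mmp7* each have 2 listed starts, of which the first of *Mmp12* (7344397) and the second of *Mmp7* (7692341) had no match. *Mmp1b* (93 bases) and *Mmp20* (95 bases) also held it, and *Mmp8* and *Mmp27* held none in the searched window. The match in *Mmp20* was TGAATCA, with A as the middle base, where the other matches had C or G.

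Libraries held between 27797121 and 34797000 assigned counts, so 3 counts, the limit that a count of 0 allows, correspond to between 0.0862 and 0.108 CPM (counts scaled to a fixed library total). That limit covers counting error only. Levels are given as CPM scaled by the trimmed mean of M-values (TMM), and levels of different genes are compared only as scaled CPM per kilobase of exon (CPM per kb). Of the 51 members, 46 passed the filter on low counts. *Mmp1a* had no count in any library, *Mmp1b* at most 3, *Mmp21* at most 2, *Mmp24* at most 4 and *Adamts13* at most 4. *Mmp1a* and *Mmp1b* are related copies, and how many reads matched both was not measured, so their values are uncertain.

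No member passed edgeR's quasi-likelihood test after Benjamini-Hochberg adjustment over 17364 genes (lowest adjusted p = 0.50), and the share of all genes that passed was 0%. At an unadjusted p under 0.05 there were 6 members of 46 (13.0%), against 6.92% of all genes. Lower in niclosamide were *Mmp9*, *Mmp17*, *Mmp23*, *Adamts5* and *Adamtsl1* (all genes 3.55%), and higher was *Adamts7* (all genes 3.37%). DESeq2, run as an alternative tool, called 3 members, *Mmp9*, *Mmp17* and *Adamts5*, all lower, where it called 1.01% of all genes (0.583% lower), and limma-voom called 0. The groups did not overlap in CPM for 9 members (19.6%), against 12.3% of all genes. In 8 of the 9 the niclosamide libraries were the lower ones, where 6.37% of all genes were lower without overlap. The 8 were the 5 above with *Mmp20*, *Adamts2* and *Adamtsl3*, and the other was *Adamts7*. Margins were slight for *Mmp20* and *Adamtsl3*. The lowest vehicle and highest niclosamide values were 0.314 and 0.309 CPM for *Mmp20* and 3.332 and 3.328 CPM for *Adamtsl3*.

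The median log2 fold change, niclosamide over vehicle, was −0.16 over the 46 tested members, of which 27 lay below 0, and it was 0.02 over all genes, of which 46.3% lay below 0. By family the medians were −0.05 for *Mmp* (9 above 0, 10 below), −0.12 for *Adamts* (8 above, 10 below), −0.23 for *Adamtsl* (1 above, 4 below) and −0.25 for *Timp* (1 above, 3 below). Single members ranged from −1.57 for *Mmp7* to 0.85 for *Mmp10*. Among *Mmp* classes with 2 or more tested genes, medians ran from −0.72 for the 2 gelatinases to 0.79 for the 2 stromelysins.

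**Figure D1:**
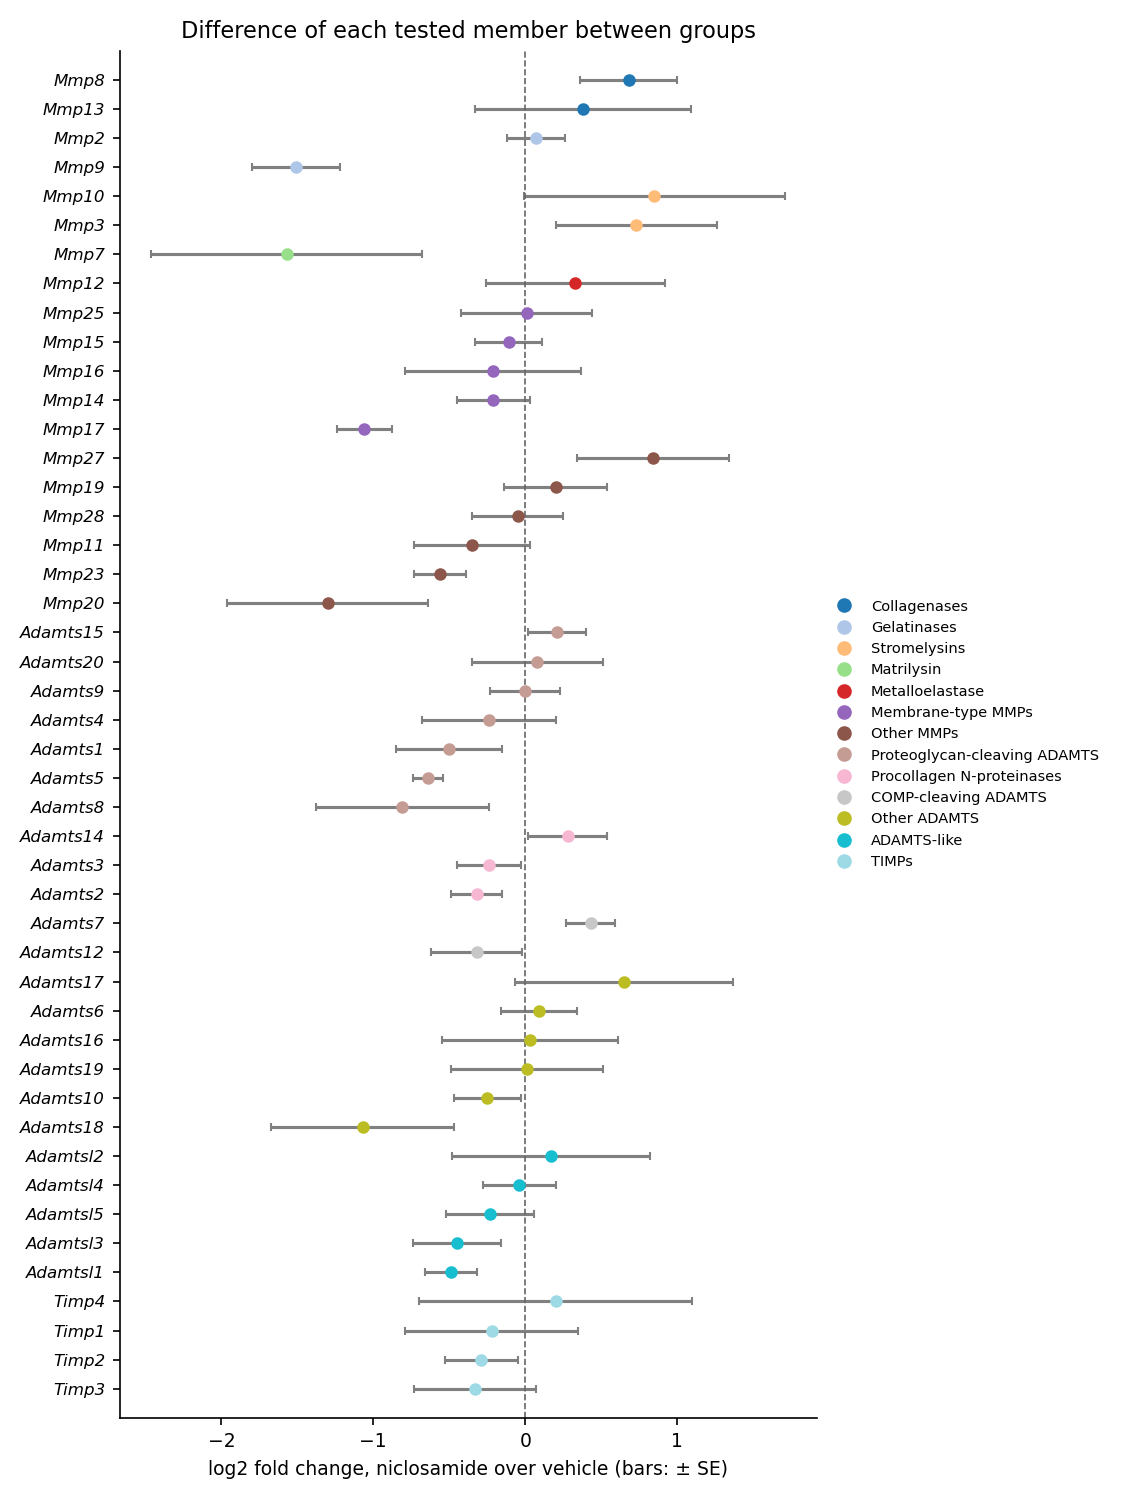
Each point is the edgeR log2 fold change, niclosamide over vehicle, of a tested member (n = 3 libraries a group), bars are ± 1 standard error, and colours mark enzyme classes. *Mmp9* (−1.51), *Mmp17* (−1.06) and *Adamts5* (−0.64) lie left of 0 by several standard errors, *Mmp7* (−1.57) has a wide bar, and none passed the adjusted threshold.

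The gelatinases, which cut denatured collagen and basement membrane collagen, differed from each other. *Mmp9* (gelatinase B; 2:164940744-164955850, plus strand, GRCm38.p3) had 107, 70.8 and 67.2 CPM in vehicle libraries 1 to 3 and 26.1, 38.6 and 21.1 CPM in niclosamide libraries 1 to 3. The lowest vehicle library thus lay above the highest niclosamide library. The mean was 81.5 ± 21.7 CPM (SD, n = 3) in vehicle and 28.6 ± 9.03 CPM (SD, n = 3) in niclosamide. The log2 fold change was −1.51 ± 0.29 (SE), with an edgeR adjusted p of 0.52 and a DESeq2 adjusted p of 0.0029. Leaving out each library in turn gave −1.80 to −1.27, and over 13 alternative settings the adjusted p ran from 0.0029 (DESeq2) to 1. *Mmp2* (gelatinase A) had the highest mean level per kb of the *Mmp* genes over all 6 libraries. In vehicle alone the means of *Mmp7* and *Mmp14* were higher, at 246 and 196 CPM per kb against 182 for *Mmp2*. *Mmp2* had 667, 526 and 554 CPM in vehicle and 530, 579 and 728 CPM in niclosamide. These groups overlapped, and its log2 fold change was 0.07 ± 0.19. Per kb, *Mmp9* stood at 0.114 to 0.151 times the level of *Mmp2* in vehicle libraries and at 0.0273 to 0.0629 times in niclosamide libraries, without overlap.

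MMP9 is stored in granules of neutrophils, and so is the collagenase MMP8. *Mmp8* had 13.7, 13.4 and 7.23 CPM in vehicle and 17.8, 23.5 and 13.6 CPM in niclosamide. Its log2 fold change was 0.68 ± 0.32 (edgeR adjusted p = 0.77), and its groups overlapped. Per kb, the ratio of *Mmp9* to *Mmp8*, looked at after the values of both were seen, was 3.81 to 6.71 in vehicle and 1.06 to 1.19 in niclosamide. Of 9 tested neutrophil markers, 8 lay below 0 (median −1.07), with *Cxcr2* at −1.96 ± 0.44 and *Csf3r*, the receptor for granulocyte colony-stimulating factor, at −0.82 ± 0.21. The granule gene *Mpo* went the other way at 1.12 ± 0.46, on 0.467 to 1.87 CPM. *Elane*, which did not pass the filter on low counts, was also higher in niclosamide, without overlap. It had 0 to 0.219 CPM in vehicle and 0.309 to 1.12 CPM in niclosamide. The summed level of all 10 markers ran from 1146 to 2815 CPM per kb in vehicle and from 374 to 1657 CPM per kb in niclosamide. Much of it came from *Ltf*, which uterine epithelium also makes. Without *Ltf*, a change made after seeing the values, the vehicle sums were 1157, 419 and 1238 CPM per kb and the niclosamide sums 254, 451 and 541 CPM per kb. These sums overlapped between groups, whereas the receptor genes did not. *Cxcr2* had 40.3 to 72.9 CPM in vehicle and 7.51 to 22.7 CPM in niclosamide, and *Csf3r* 115.2 to 142.6 CPM and 52.8 to 86.2 CPM. Both were thus lower without overlap, as *Mmp9* was, and of the 9 tested markers only these 2 were. DESeq2 called *Cxcr2*. The part of these cells in the *Mmp9* result was not tested.

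Among membrane-type MMPs, *Mmp17*, which is anchored by glycosylphosphatidylinositol (5:129584174-129608211, plus strand), was lower in every niclosamide library. It had 46.0, 51.1 and 46.5 CPM in vehicle and 18.4, 22.0 and 28.4 CPM in niclosamide. The mean was 47.8 ± 2.84 CPM (SD, n = 3) in vehicle and 22.9 ± 5.04 CPM (SD, n = 3) in niclosamide, a 2.09-fold lower fitted level. The log2 fold change was −1.06 ± 0.18, with an edgeR adjusted p of 0.50 and a DESeq2 adjusted p of 0.0016, and it stayed between −1.23 and −0.93 when any 1 library was left out. Its adjusted p ran from 0.0016 (DESeq2) to 1 over the 13 alternatives.

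*Mmp14*, the collagenolytic membrane enzyme that activates pro-MMP2 together with TIMP2, did not separate the groups. Its levels were 612, 416 and 497 CPM in vehicle and 446, 541 and 330 CPM in niclosamide, with a log2 fold change of −0.21 ± 0.24. *Mmp15* had 25.6, 19.7 and 19.7 CPM in vehicle and 15.1, 24.6 and 20.6 CPM in niclosamide (log2 fold change −0.11 ± 0.22). *Mmp25*, a leukocyte enzyme, lay between 5.13 and 15.9 CPM over all libraries and *Mmp16* between 1.70 and 7.03 CPM. The class thus held 5 tested genes, of which *Mmp17* alone was at an unadjusted p under 0.05, and a median of −0.21.

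*Mmp23*, a type II membrane protein released by cleavage (4:155650655-155654481, minus strand), had 101, 95.7 and 100.1 CPM in vehicle. In niclosamide it had 53.9, 65.7 and 82.2 CPM, so the groups did not overlap. The log2 fold change was −0.56 ± 0.17 (edgeR adjusted p = 0.62), between −0.71 and −0.42 when any 1 library was left out. *Mmp11* (stromelysin-3), a stromal enzyme, had 51.1, 41.8 and 57.4 CPM in vehicle and 46.1, 53.1 and 18.4 CPM in niclosamide. Only niclosamide library 3 lay below the vehicle range, and the log2 fold change was −0.35 ± 0.38. *Mmp19* had 148, 60.8 and 127 CPM in vehicle and 140, 142 and 103 CPM in niclosamide, where vehicle library 2 was the low one (log2 fold change 0.20 ± 0.34). *Mmp27* and *Mmp28* stayed below 4 CPM in every library, and *Mmp20*, the enamel protease, below 1 CPM.

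**Figure D2:**
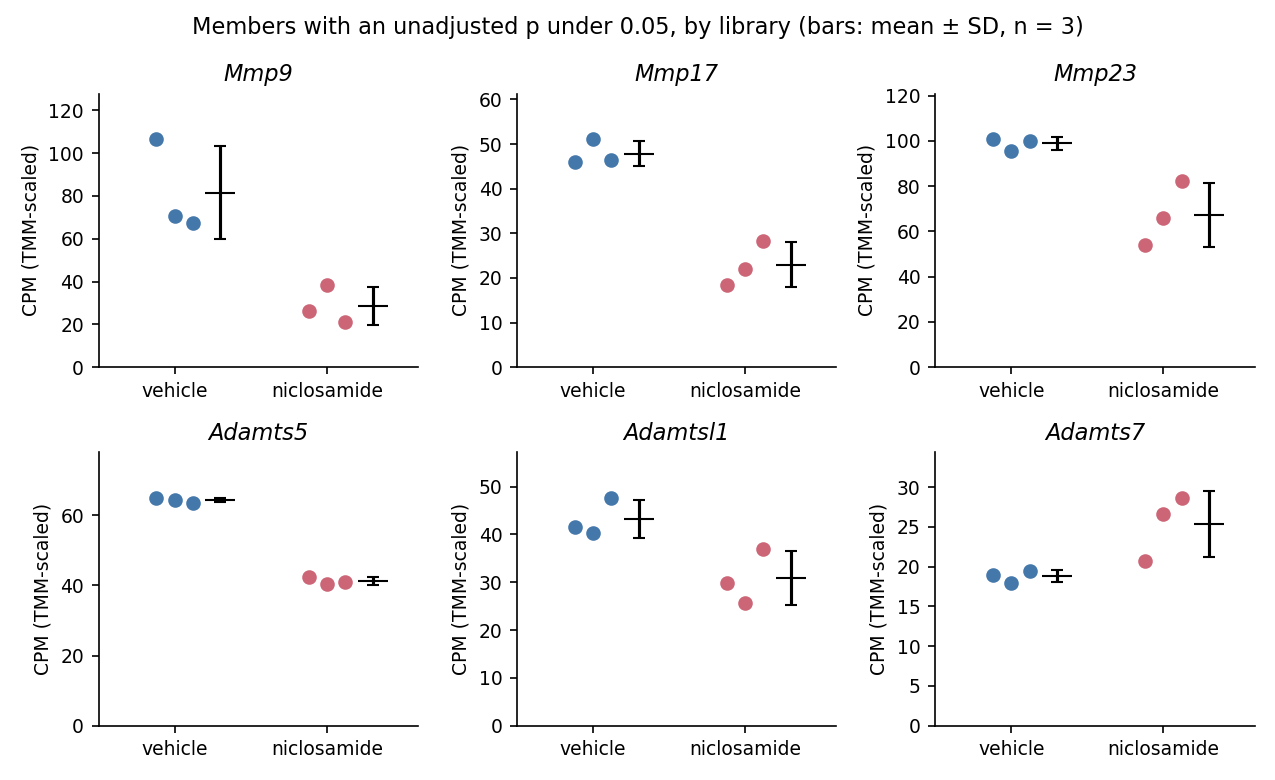
Points are TMM-scaled CPM of single libraries (blue vehicle, red niclosamide) for the 6 members with an unadjusted p under 0.05, and the black bar beside each group is its mean ± SD (n = 3). *Mmp9*, *Mmp17*, *Mmp23*, *Adamts5* and *Adamtsl1* sit lower in niclosamide and *Adamts7* higher, in each case without overlap.

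Matrilysin, *Mmp7*, is made by epithelial cells and had the lowest log2 fold change of any member, with a wide spread. It had 289, 117 and 242 CPM in vehicle and 11.8, 161 and 46.2 CPM in niclosamide. Niclosamide library 2 lay within the vehicle range and the other 2 niclosamide libraries below it. The log2 fold change was −1.57 ± 0.89 (unadjusted p = 0.12, edgeR adjusted p = 0.83), and leaving out 1 library at a time moved it from −2.91 to −1.07. The −2.91 came without niclosamide library 2, and limma-voom on all libraries gave −2.18. The summed level of 7 uterine epithelial markers was 1054, 611 and 434 CPM per kb in vehicle and 204, 1134 and 438 CPM per kb in niclosamide. Niclosamide library 1 was lowest and niclosamide library 2 highest of its group for both *Mmp7* and this sum. In vehicle, library 1 was highest for both, but *Mmp7* was lowest in library 2 and the sum in library 3. Library 3 of vehicle and of niclosamide had sums of 434 and 438 CPM per kb, with *Mmp7* at 242 and 46.2 CPM. The part of epithelium in the *Mmp7* values was not tested. All 7 epithelial markers were counted in every library, and all 7 lay below 0 (median −0.27). Of the 7, 1 (14.3%) was lower without overlap, beside 6.37% of all genes. It was *Foxa2*, a gland marker with 14 to 101 counts a library. *Foxa2* had 1.70 to 3.68 CPM in vehicle and 0.476 to 1.12 CPM in niclosamide, with a log2 fold change of −1.52 ± 0.47 (edgeR adjusted p = 0.62).

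Stromelysins, which cut proteoglycans and activate other pro-MMPs, had positive log2 fold changes with wide errors. *Mmp3* had 79.6, 19.2 and 58.6 CPM in vehicle and 107, 102 and 52.2 CPM in niclosamide, with a log2 fold change of 0.73 ± 0.53. *Mmp10* had 13.8, 3.21 and 7.76 CPM in vehicle and 11.2, 30.4 and 3.14 CPM in niclosamide (log2 fold change 0.85 ± 0.86). Vehicle library 2 was the lowest vehicle library for both, and the groups overlapped for both. *Mmp13*, the main fibrillar collagenase of rodents, had 43.3, 21.1 and 59.7 CPM in vehicle and 105, 40.5 and 15.5 CPM in niclosamide. Its niclosamide libraries spanned a wider range than its vehicle libraries on both sides, and its log2 fold change was 0.38 ± 0.71.

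*Mmp12*, the metalloelastase of macrophages, was among the abundant members. It had 576, 133 and 475 CPM in vehicle and 715, 506 and 271 CPM in niclosamide, and its log2 fold change was 0.33 ± 0.59. Vehicle library 2 was again the lowest. The summed level of 9 macrophage markers was 1497, 838 and 870 CPM per kb in vehicle and 1898, 1719 and 1057 CPM per kb in niclosamide, and 8 of the 9 lay above 0 (median 0.45). These sums overlapped between groups as *Mmp12* did, and their part in its level was not tested.

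In the chromosome 9 cluster, 8 of 10 genes were tested, 0 were at an unadjusted p under 0.05, and 6 lay above 0 (median 0.53). Of the 13 *Mmp* genes elsewhere, 11 were tested and 3 were lower at an unadjusted p under 0.05 (median −0.21), where 3.55% of all genes were lower and 6.92% passed in either direction. The difference between these counts was not tested. Neighbours differed widely in level. *Mmp12* reached 36.0 to 193 CPM per kb and *Mmp7* 13.5 to 330 CPM per kb, *Mmp3* stood at 10.7 to 59.5 CPM per kb, and *Mmp1a*, flanked by *Mmp3* and *Mmp10*, had no count although the printed upstream sequences of all 3 hold the motif. *Mmp7*, at the far end of the cluster, was the only abundant cluster gene with a negative log2 fold change.

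**Figure D3:**
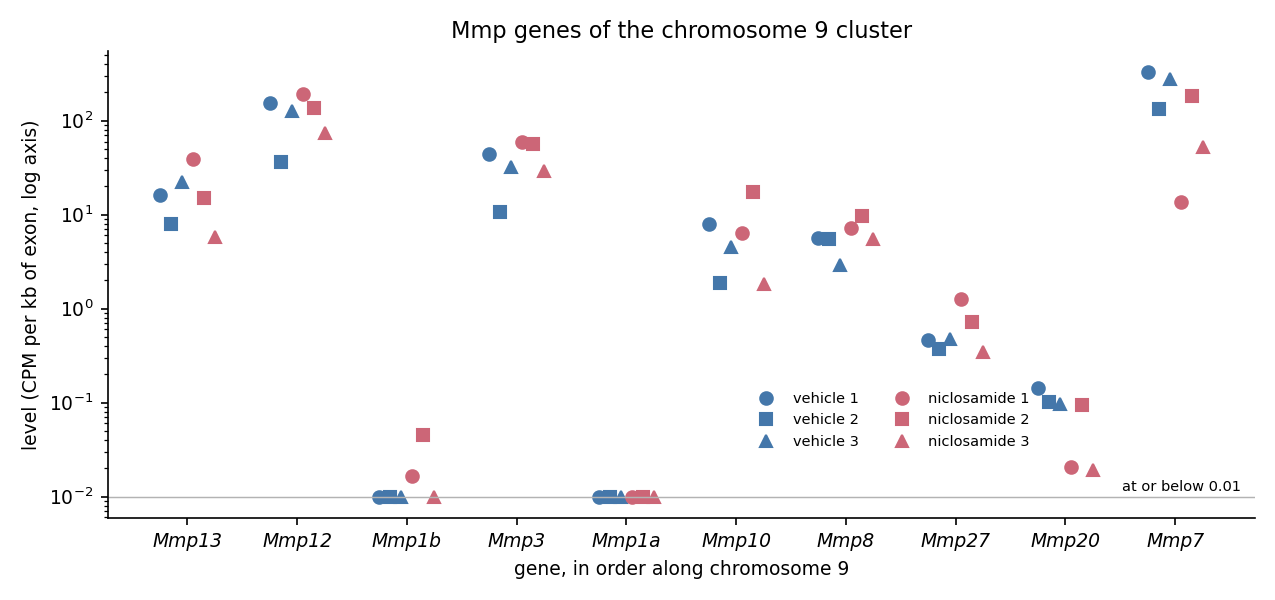
Points are levels in CPM per kb of exon (log axis) of the 10 cluster genes in their order along chromosome 9, blue for vehicle and red for niclosamide, with a marker shape for each replicate number; values at or below 0.01 are drawn at 0.01. *Mmp12* and *Mmp7* stand highest, *Mmp1a* and *Mmp1b* at the bottom, and the groups overlap in every gene that reached 1 CPM per kb in any library.

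Of 18 tested *Adamts* genes, 1 was higher and 1 lower at an unadjusted p under 0.05 (11.1%, beside 6.92% of all genes). Of the proteoglycan-cleaving enzymes, *Adamts5* (aggrecanase-2; 16:85858157-85902374, minus strand) had 65.0, 64.3 and 63.6 CPM in vehicle and 42.5, 40.2 and 41.1 CPM in niclosamide. The 3 libraries of each group lay within 2 CPM of their mean, 64.3 ± 0.697 CPM (SD, n = 3) in vehicle and 41.2 ± 1.12 CPM (SD, n = 3) in niclosamide. The fitted level was 1.56-fold lower (log2 fold change −0.64 ± 0.10), with an edgeR adjusted p of 0.50 and a DESeq2 adjusted p of 3e-04. It was the steadiest of the named differences, at −0.67 to −0.63 when any 1 library was left out, with an adjusted p from 3e-04 (DESeq2) to 1 over the 13 alternatives.

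The other proteoglycan-cleaving enzymes overlapped between groups. *Adamts1*, a gene induced by progesterone and needed for ovulation, had 94.9, 102 and 141 CPM in vehicle and 42.4, 92.5 and 104 CPM in niclosamide (log2 fold change −0.50 ± 0.35). *Adamts4* (aggrecanase-1) had 29.2, 24.8 and 22.7 CPM in vehicle and 9.75, 35.3 and 20.1 CPM in niclosamide, so the niclosamide libraries lay on both sides of the vehicle range (log2 fold change −0.24 ± 0.44). *Adamts9*, a versican-cleaving enzyme, had 39.9, 56.8 and 51.0 CPM in vehicle and 35.8, 51.1 and 60.5 CPM in niclosamide, and its log2 fold change was 0.00 ± 0.23. *Adamts15* had 53.9, 33.3 and 41.8 CPM in vehicle against 52.5, 48.3 and 47.9 CPM in niclosamide (log2 fold change 0.21 ± 0.19). The class as a whole had 2 genes above 0 and 5 below, and a median of −0.24. Its summed level was 48.9, 47.3 and 56.1 CPM per kb in vehicle and 29.2, 46.5 and 46.9 CPM per kb in niclosamide, which did not overlap by a narrow margin.

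Procollagen N-proteinases remove the amino-terminal propeptide of fibrillar procollagens. *Adamts2*, the most abundant *Adamts* gene, had 242, 303 and 232 CPM in vehicle and 218, 223 and 179 CPM in niclosamide. Its groups did not overlap, yet the log2 fold change of −0.32 ± 0.17 had an edgeR adjusted p of 0.79. *Adamts3* had 21.6, 30.5 and 29.5 CPM in vehicle and 20.3, 28.1 and 20.5 CPM in niclosamide (log2 fold change −0.24 ± 0.21). The third enzyme, *Adamts14*, lay at 7.22 to 14.9 CPM over all libraries (log2 fold change 0.28 ± 0.26). Of their substrate genes, *Col1a1* had 3366, 3748 and 3028 CPM in vehicle and 1870, 2041 and 2930 CPM in niclosamide, lower without overlap, with a log2 fold change of −0.57 ± 0.25 (edgeR unadjusted p = 0.056). *Col3a1* overlapped between groups, at −0.12 ± 0.27.

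*Adamts7*, one of the enzymes that cut cartilage oligomeric matrix protein (9:90162978-90200102, plus strand), was higher in niclosamide. It had 18.9, 18.0 and 19.5 CPM in vehicle and 20.7, 26.6 and 28.7 CPM in niclosamide, without overlap. The log2 fold change was 0.43 ± 0.16 (edgeR adjusted p = 0.68), between 0.34 and 0.55 when any 1 library was left out. *Adamts12*, its closest relative in structure, had 20.02, 35.9 and 27.2 CPM in vehicle and 16.9, 30.5 and 19.0 CPM in niclosamide, with a log2 fold change of −0.32 ± 0.30 in the other direction. Of the remaining enzymes, *Adamts10*, which acts in fibrillin microfibrils, had 43.5, 75.0 and 64.1 CPM in vehicle and 52.9, 44.3 and 56.0 CPM in niclosamide (log2 fold change −0.25 ± 0.22). *Adamts6* had 19.8, 36.4 and 35.5 CPM in vehicle and 36.6, 31.2 and 29.9 CPM in niclosamide (log2 fold change 0.09 ± 0.25). Both overlapped between groups.

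Of the 5 ADAMTS-like genes, *Adamtsl1* (4:85513234-86428390, plus strand) was lower in niclosamide without overlap. It had 41.6, 40.3 and 47.7 CPM in vehicle and 29.8, 25.7 and 36.9 CPM in niclosamide, a log2 fold change of −0.49 ± 0.17 (edgeR adjusted p = 0.65). *Adamtsl4*, which binds fibrillin and has the highest level per kb of the 5, had 28.3, 23.1 and 23.5 CPM in vehicle and 32.4, 17.6 and 23.0 CPM in niclosamide. The niclosamide libraries lay around the vehicle range, and its log2 fold change was −0.04 ± 0.24. *Adamtsl2*, *Adamtsl3* and *Adamtsl5* had log2 fold changes of 0.17 ± 0.65, −0.45 ± 0.29 and −0.23 ± 0.29.

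None of the 4 inhibitors passed the test or separated the groups (edgeR adjusted p from 0.93 to 0.98). *Timp2*, which inhibits MMPs and also takes part in the activation of pro-MMP2, had 769, 484 and 636 CPM in vehicle and 626, 476 and 448 CPM in niclosamide, with a log2 fold change of −0.29 ± 0.24. *Timp3*, the inhibitor that binds to matrix, had 955, 493 and 548 CPM in vehicle and 489, 777 and 325 CPM in niclosamide (log2 fold change −0.33 ± 0.40). *Timp1*, the inducible inhibitor that binds pro-MMP9, had 180, 44.9 and 65.8 CPM in vehicle and 81.9, 118 and 50.3 CPM in niclosamide (log2 fold change −0.22 ± 0.57). Vehicle library 1, the pool of 4 mice, was the highest library for all 3. *Timp4* was near the limit of detection, with 5 to 45 counts a library and a log2 fold change of 0.20 ± 0.90.

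Summed per kb, the *Mmp* genes reached 1163, 638 and 973 CPM per kb in vehicle and 761, 927 and 615 CPM per kb in niclosamide. The *Timp* genes summed to 618, 290 and 367 CPM per kb in vehicle and 370, 430 and 250 CPM per kb in niclosamide. Both sums overlapped between groups. Their ratio was 1.88, 2.20 and 2.65 in vehicle (mean 2.24 ± 0.386, SD, n = 3) and 2.06, 2.16 and 2.46 in niclosamide (mean 2.22 ± 0.21, SD, n = 3), a difference of 0.00 on the log2 scale. Without *Mmp7* the ratio was 1.35, 1.74 and 1.90 in vehicle and 2.02, 1.73 and 2.25 in niclosamide, a difference of 0.27, against an SD over vehicle libraries of 0.26. The *Adamts* sum was 112 ± 10.1 CPM per kb (SD, n = 3) in vehicle and 94.3 ± 10.1 CPM per kb (SD, n = 3) in niclosamide. It overlapped between groups, at 100 to 119 CPM per kb in vehicle and 82.7 to 102 CPM per kb in niclosamide. The *Adamts* sum lay well below the *Mmp* sum in both groups.

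The make-up of the *Mmp* sum also differed between libraries. *Mmp7* gave 28.3%, 20.9% and 28.3% of the sum in vehicle and 1.77%, 19.7% and 8.56% in niclosamide, so its share was lower in every niclosamide library than in any vehicle library. *Mmp14* gave 21.7% ± 3.00 (SD, n = 3) in vehicle and 21.9% ± 1.07 (SD, n = 3) in niclosamide. *Mmp2* gave 20.5% ± 4.57 in vehicle and 26.1% ± 9.51 in niclosamide, and *Mmp12* gave 10.7% ± 4.40 and 17.3% ± 7.10 (SD, n = 3 each). In the *Timp* sum, *Timp2* gave 42.7% in vehicle and 42.2% in niclosamide, *Timp3* 33.7% and 31.6%, and *Timp1* 23.4% and 26.1% (means, n = 3). The ratio of *Mmp14* to *Timp2*, whose proteins form the complex that activates pro-MMP2, was 1.089 to 1.199 in vehicle and 0.995 to 1.59 in niclosamide.

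**Figure D4:**
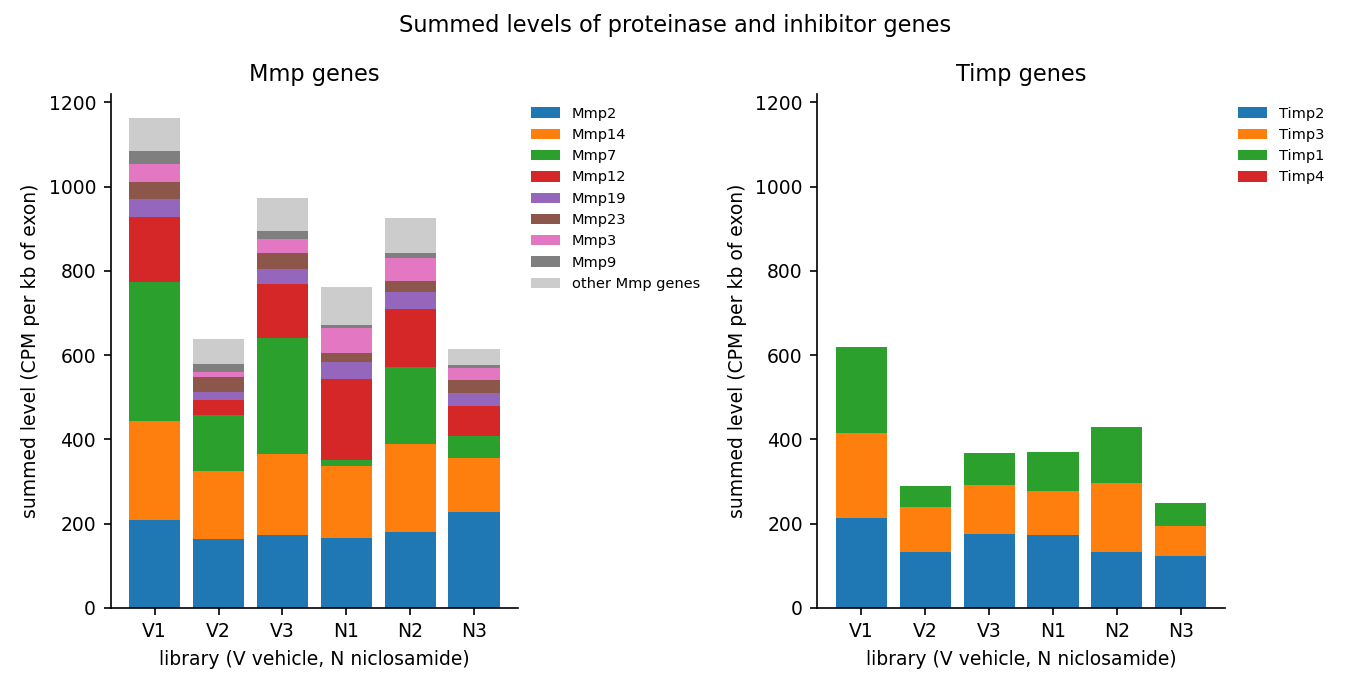
Bars stack the levels of *Mmp* genes (left) and *Timp* genes (right) in each library, in CPM per kb of exon on the same axis, with V for vehicle and N for niclosamide. The *Mmp* stack is 1.88 to 2.65 times the *Timp* stack, and the *Mmp7* segment shrinks to 1.77% of the *Mmp* sum in niclosamide library 1.

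The list of 49 other genes of pericellular proteolysis covered activators, sheddases, cathepsins and matrix substrates. Of these, 43 were tested and 0 passed edgeR's adjusted threshold, and 6 (14%, beside 6.92% of all genes) were at an unadjusted p under 0.05, 2 higher and 4 lower. *Plat*, the tissue plasminogen activator whose product plasmin can activate pro-MMPs, had 484, 235 and 289 CPM in vehicle and 98.8, 225 and 102 CPM in niclosamide (log2 fold change −1.25 ± 0.43). Its groups did not overlap, though niclosamide library 2 lay close to the vehicle range. *Eln*, which encodes elastin, a substrate of MMP9 and MMP12, had 358, 259 and 282 CPM in vehicle and 83.6, 137 and 109 CPM in niclosamide. Its log2 fold change was −1.45 ± 0.23, with an edgeR adjusted p of 0.50, and it was the only gene of the list that DESeq2 called. *Fbn2*, a fibrillin gene, stood at −0.91 ± 0.30 and *Adam19*, a sheddase gene, at −0.30 ± 0.12. *Ctss*, a lysosomal elastin-cutting cathepsin of macrophages and dendritic cells, stood at 0.98 ± 0.38, and *Adam17*, the sheddase that TIMP3 inhibits, at 0.40 ± 0.15. *Plg*, *Serpinf2*, *Tll2*, *Mep1a*, *Mep1b* and *Bcan* did not pass the filter on low counts.

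Other cell type markers also stood apart between groups. The summed level of 8 smooth muscle markers was 2303 to 3584 CPM per kb in vehicle and 810 to 1943 CPM per kb in niclosamide, without overlap, with all 8 below 0 (median −1.31) and 7 at an unadjusted p under 0.05. In single niclosamide libraries the sum was 979, 810 and 1943 CPM per kb, highest in library 3. The niclosamide values of *Mmp17*, *Mmp23* and *Adamtsl1* were also highest in library 3, as were those of *Adamts7*, which was higher in niclosamide. Those of *Mmp9* were lowest there and those of *Adamts5* lay close together. Among vehicle libraries the smooth muscle sum was lowest in library 2, where *Mmp17* was highest and *Mmp23* and *Adamtsl1* were lowest. The summed level of 7 T and NK cell markers was 94.8 to 114 CPM per kb in vehicle and 155.7 to 220.6 CPM per kb in niclosamide, higher without overlap. Of the 8 stromal markers, 7 lay above 0 (median 0.15), and none was at an unadjusted p under 0.05. Their sum was 1889 to 2385 CPM per kb in vehicle and 2652 to 2843 CPM per kb in niclosamide, higher without overlap. Of the single genes only *Dcn* and *Vim* were higher without overlap. *Hoxa10*, a uterine patterning gene, had 113 to 206 CPM in vehicle and 55.2, 62.5 and 334 CPM in niclosamide, and *Hoxa11* and *Hand2* likewise lay below the vehicle range in niclosamide libraries 1 and 2 and above it in library 3. Skeletal muscle markers summed to between 381 and 13147 CPM per kb over the niclosamide libraries and to between 1989 and 4683 CPM per kb over the vehicle libraries. Adipocyte markers summed to between 2.63 and 365 CPM per kb over the niclosamide libraries and to between 21.9 and 235 CPM per kb over the vehicle libraries. The part of these cell types in the member differences was not tested. Uterine epithelial and stromal markers were detected in every library, as the tissue label implies.

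**Figure D5:**
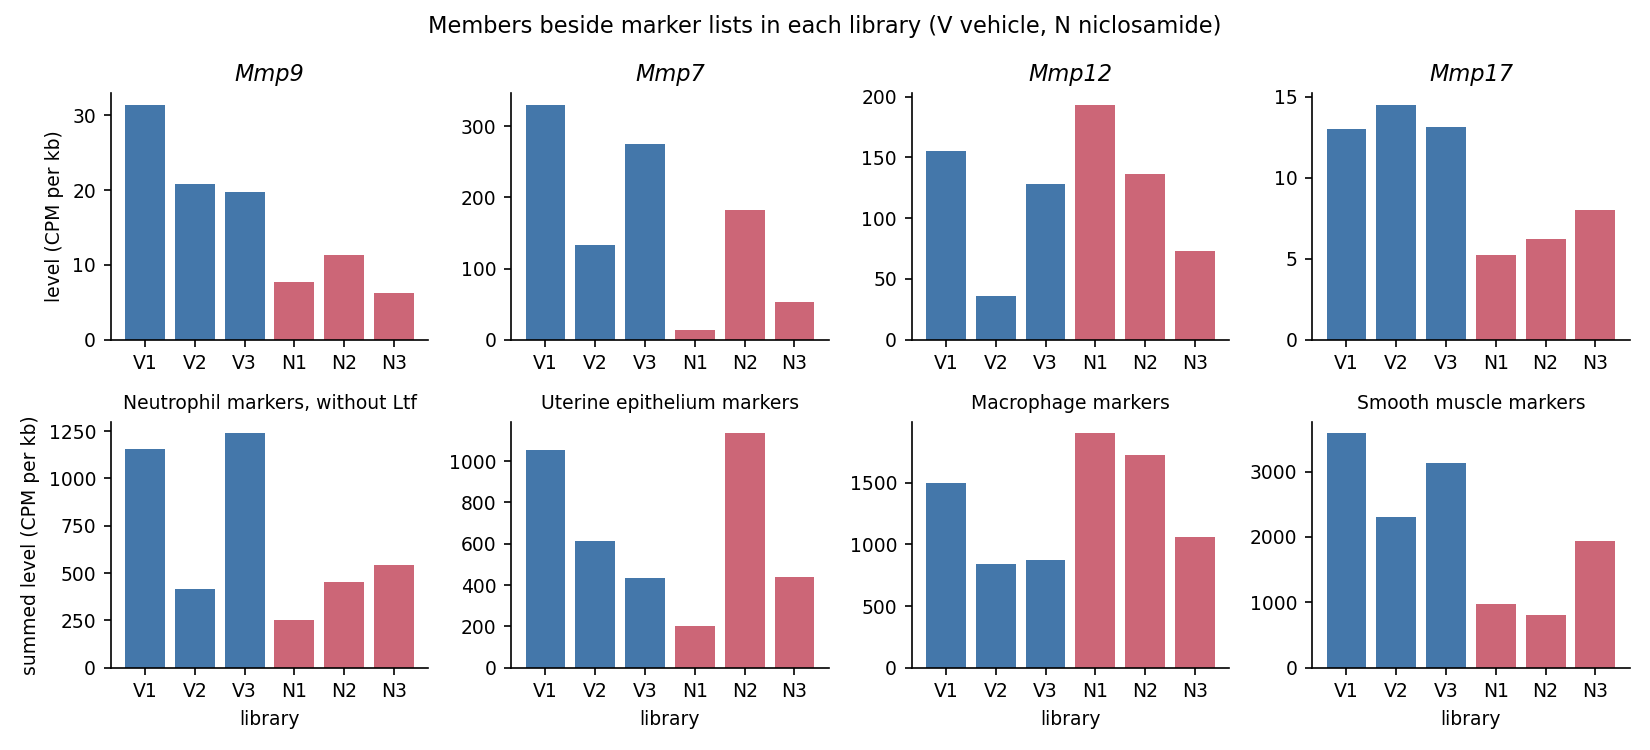
The upper row shows 4 members and the lower row the summed level of a marker list, in CPM per kb for each library, with V and blue for vehicle and N and red for niclosamide. *Mmp9* and *Mmp17* are lower in all 3 niclosamide libraries, as is the smooth muscle sum, and the neutrophil (without *Ltf*), epithelial and macrophage sums overlap between groups.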

How the data were processed

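RNA from 6 libraries (3 vehicle, 3 niclosamide) was prepared with a stranded kit, per the labels' protocols. The deposited values are whole-number counts per gene, made by the authors with featureCounts (Subread 1.4.6-p4) on STAR 2.4.2a alignments, reversely stranded, over exons, per the file headers; the build was GRCm38.p3. Trimmomatic 0.33, bcl2fastq 1.8.4 and edgeR 3.12.0 are listed, without a role, in the submitters' processing notes. From these counts, edgeR 4.0.16 in R 4.3.3 was run over all genes (filterByExpr with minimum count 10 and minimum total count 15, TMM scaling, robust quasi-likelihood fit, group as the only term, Benjamini-Hochberg adjustment). Levels per kb are scaled CPM over the summed exon length in the files; within a library, their ratios and shares equal those of TPM. Each standard error is the absolute edgeR log2 fold change divided by the square root of the F statistic of its test. DESeq2 1.42.0, limma-voom (limma 3.58.1), other scalings, filters, a replicate block and leaving out each library were alternatives. The test was also run on simulated counts, with changes set only in well-counted genes, and no result here rests on that run. The members, gene lists, markers and alternatives were chosen with earlier results of these data known. Named were members with an unadjusted p under 0.05, a mean of at least 20 CPM, a DESeq2 call or the highest level of their class, and all *Timp* genes (30 in all); of the other proteolysis genes, those with an unadjusted p under 0.05. *Mmp8*, *Mmp10*, *Mmp16*, *Mmp20*, *Mmp25*, *Mmp27*, *Mmp28*, *Adamts14*, *Adamtsl2*, *Adamtsl3*, *Adamtsl5*, *Col1a1* and *Col3a1* fall outside this rule, were added after their values were seen and were not followed through the alternatives. Except for the pool, libraries come from separate mice, and 3 per group limits what can be detected.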

Additional observations from a re-analysis of the deposited data

How the results depend on the processing

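Under DESeq2 the number of called members was 3 in place of 0, that of all genes 178 in place of 0 and that of the other proteolysis genes 1 in place of 0, and the 3 members were *Mmp9* (log2 fold change −1.50), *Mmp17* (−1.06) and *Adamts5* (−0.63); with no filter on low counts, edgeR called 1 gene of all. No other scaling, filter, threshold, left-out library or tool gave a called member. Leaving out each library in turn put 4 to 8 members at an unadjusted p under 0.05, against 6. The share of all genes at that rule was counted only in the main fit (6.92%), not in these or the other alternatives. These counts therefore cannot be set against a share of all genes. The difference in log2 ratio of summed *Mmp* to summed *Timp* level was 0.23 on CPM not divided by length and 0.27 without *Mmp7* (an alternative chosen after seeing the data), against 0.00, and −0.12 to 0.12 with each library left out. Of the 29 tested named members, 17 kept their sign under every alternative. *Adamts9*, at 0.00, was 0.01 with RLE scaling and 0.00 with DESeq2, and *Timp4* was −0.11 with limma-voom. With a library left out, signs turned for *Adamts4* (−0.79 to 0.11), *Adamtsl4* (−0.30 to 0.13), *Adamts9* (−0.17 to 0.18), *Timp4* (−1.0 to 0.66), *Mmp2* (−0.06 to 0.18), *Mmp15* (−0.30 to 0.06), *Mmp13* (−0.56 to 0.82), *Mmp12* (−0.08 to 0.71), *Timp3* (−0.73 to 0.03), *Mmp19* (−0.10 to 0.45), *Adamts6* (−0.14 to 0.23) and *Timp1* (−0.57 to 0.59). The cause of these differences was not tested. *Timp4* had 5 to 45 counts a library, at similar library totals.

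The groups share replicate numbers, but same-numbered libraries did not all deviate together (correlations −0.08, −0.09 and 0.27 for numbers 1 to 3). The libraries numbered 3 correlated best with each other, and no other library correlated best with its own number. The numbers were therefore not taken to pair samples. With the replicate block, 0 members and 0 genes of all passed the threshold, 6 members were at an unadjusted p under 0.05, and *Timp4* was −0.16.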
